A study of Mus musculus with 9 samples.

Results

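A block of zinc finger genes on mouse chromosome 13, the genes around *Zfp87*, was followed through mouse embryonic fibroblast (MEF) cultures. Members were the genes of the deposited count table whose GENCODE M21 start lies on chromosome 13 between 62000000 and 69000000 (GRCm38) and whose normalised count averaged 5 or more over all 9 cultures. They were chosen by position and by this measured mean, and the region itself was picked with results of the same cultures known. It lies around the lowest point of a smoothed curve of the Dp1Tyb against WT contrast in these cultures. Of the 123 genes listed there, 60 were members, out of 43629 genes in the table, and 81 of the 123 had at least 1 count. By their symbols, 28 members were zinc finger genes, 25 were other protein-coding genes and 7 were non-coding: 3 antisense transcripts, 2 miRNA genes, 1 processed transcript and 1 processed pseudogene. RNAseq had been carried out on MEFs, connective tissue cells grown for a few passages from E14.5 littermates without head and viscera, 1 culture per embryo. The 4 WT cultures carried 2 copies of every autosomal region, and the 5 Dp1Tyb cultures carried the segmental duplication Dp(16Lipi-Zbtb21)1TybEmcf of chromosome 16, which is orthologous to human chromosome 21 and touches no part of chromosome 13. Strain C57BL/6J.129P2, backcrossed to C57BL/6J, was shared by all cultures, so the cells model an extra dose of chromosome 16 genes in a single mouse background and a single cultured cell type. A label number separates WT replicate 1 and Dp1Tyb replicate 1, here called set 1, from the other 7 cultures, set 2, without saying what the sets are.

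Genes of this family encode proteins with tandem C2H2 fingers, short loops folded around zinc that read DNA bases, and most of those in clusters also carry a KRAB domain. The KRAB domain recruits TRIM28, which brings the histone methyltransferase SETDB1 and chromatin remodellers to the bound DNA, and such proteins are best known for silencing transposable elements and some genes. The clusters grew by tandem duplication, so neighbours are often close copies. *Rsl1*, regulator of sex-limitation, belongs to this block and is known as a repressor of male-enriched liver genes such as those of complement C4 and the major urinary proteins.

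About as many members were finger genes as were not: by symbol 28 of the 60 were zinc finger genes, and 31 had 3 or more C2H2 fingers. In the longest reading frame of the annotated coding transcripts, the 28 zinc finger members had a median of 11.5 C2H2 fingers, from 1 in *Zfp367* to 30 in *Zfp729b*. *Zfp729a*, its near neighbour, had 27, *Zfp748* had 23, *Zfp87* had 15 and *Rsl1* had 12. A further 4 members that are not named as zinc finger genes had 10 or more fingers: *Gm5141* with 15, *Gm3604* with 14, *6720489N17Rik* with 11 and *Platr25* with 10. Most of the family sat close together: 23 of the 28 zinc finger members lay within 788 kb, at chr13:67038596-67827002, and 18 of those 23 were on the minus strand. Near copies can lose reads, because reads with several alignments were discarded. Up to 9.67% of the 100-base windows of a zinc finger member's transcripts, the value for *Zfp934*, recurred in transcripts of a gene elsewhere, with 9.46% for *Zfp808*, 7.85% for *Rsl1* and a median of 1.25%, so levels of these genes may be understated. *Zfp87* and *Zfp748* shared no such window.

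A shared promoter stretch was found in most of the family and is shown because the rule did not use sequence. RefSeq promoters (GRCm38.p6, 250 bases before to 50 after a gene's start) were matched for 43 of the 60 members and for 23 of the 28 zinc finger members. *Zfp87*, *Zfp493*, *Zfp369*, *Zfp934* and *Zfp729b* had no match. The most frequent 13-base word over the 23 promoters, counted on either strand, was searched for after the promoters had been read. On the gene's own strand it reads TGGGAAATGTAGT. It occurred exactly in 9 of the 23 promoters (39.1%) and with at most 1 changed base in 18 of 23 (78.3%), always in this orientation. The same word occurred exactly in 0.492% and with at most 1 change in 1.25% of the 27025 promoters of the table. Because the word was picked as the most frequent in these 23 promoters, a higher share here was favoured by the choice and is a description only. In zinc finger genes outside the region, 36 of 303 promoters (11.9%) had it with at most 1 change, and among 16 promoters of other protein-coding members only that of *Gm10037* did. Examples from along the block, of 60 bases each, are given in gene orientation with the word in capitals.
Zfp712 (chr13:67061195-67061254, minus strand): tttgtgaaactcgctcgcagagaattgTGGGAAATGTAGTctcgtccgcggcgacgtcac
Zfp759 (chr13:67128148-67128207, plus strand): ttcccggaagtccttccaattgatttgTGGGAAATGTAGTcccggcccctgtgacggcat
Rsl1 (chr13:67173083-67173142, plus strand): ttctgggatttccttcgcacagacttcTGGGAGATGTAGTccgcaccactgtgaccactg
Zfp874a (chr13:67451626-67451685, minus strand): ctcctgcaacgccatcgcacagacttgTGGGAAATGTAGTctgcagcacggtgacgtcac
Zfp748 (chr13:67553147-67553206, minus strand): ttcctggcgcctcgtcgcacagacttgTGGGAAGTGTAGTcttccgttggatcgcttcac
Zfp738 (chr13:67683537-67683596, minus strand): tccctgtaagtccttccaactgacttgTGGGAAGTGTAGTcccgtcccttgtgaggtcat
Zfp85 (chr13:67755187-67755246, minus strand): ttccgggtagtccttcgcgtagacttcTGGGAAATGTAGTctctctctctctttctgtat

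The words of *Zfp712*, *Zfp759*, *Zfp874a* and *Zfp85* are exact, and those of *Rsl1*, *Zfp748* and *Zfp738* differ by 1 base. Words began between 179 and 17 bases before the annotated start. All 18 promoters with the word belonged to the 23-gene stretch, and none of the 3 matched zinc finger members before it (*Zfp808*, *Zfp935* and *Zfp367*) had it. Whole promoters of some pairs of members, not all of them neighbours, were also alike. *Rsl1* and *Zfp456* were identical at 88.4% of aligned positions, *Rsl1* and *Zfp429* at 87.9%, and *Zfp456* and *Zfp429* at 87.3%. *Zfp874a* and *Zfp874b* were identical at 74.7%, against a median of 48.0% over all 253 pairs. Of 4 textbook promoter motifs searched on either strand, TATAAA was present in 1 of 23 promoters (14.2% of all promoters), CCAAT in 9 (37.9%), GGGCGG in 4 (35.9%) and CCGGAAG in 4 (9.12%). The shares in zinc finger members were 4.35%, 39.1%, 17.4% and 17.4%, so TATAAA and GGGCGG were less frequent, CCAAT about as frequent and CCGGAAG more frequent than over all promoters. In 303 promoters of zinc finger genes outside the region, the shares were 5.94%, 49.8%, 46.5% and 21.1% in the same order. The low share of TATAAA and the high share of CCGGAAG were thus not particular to this block, while GGGCGG was more frequent elsewhere in the family. The median number of CpG dinucleotides per promoter was 8.0 in zinc finger members, 14.0 in zinc finger genes outside the region, 18.5 in other protein-coding members and 7.0 over all genes.

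Expression was low across the family. Per length, the mean level of the zinc finger members over 9 cultures had a median of 0.915 RPKM (the count scaled by exon length and by the library's total) and went from 0.0277 in *Rslcan18* to 4.10 in *Zfp935*. *Zfp65* at 2.54 RPKM, *Zfp87* at 2.37, *Zfp874a* at 2.28, *Zfp367* at 2.00 and *Zfp429* at 1.71 followed. Neighbours in this order overlapped over cultures: *Zfp935* was between 3.19 and 5.58 RPKM, *Zfp65* between 1.87 and 3.98 RPKM, *Zfp87* between 1.52 and 3.91, and *Zfp874a* between 1.99 and 2.65. The other protein-coding members had a median of 1.79 RPKM, with *Ctsl*, the lysosomal protease cathepsin L, highest at 146 and *Uqcrb*, a subunit of mitochondrial respiratory complex III, at 60.2. Just inside the threshold of 5 were *4930525G20Rik* at 5.02 normalised counts, *Gm10037* at 5.46 and *Rslcan18* at 5.79, and just outside were *Zfp457* at 4.98, *1700001L19Rik* at 3.73 and *Fbp2* at 1.49.

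Total counts were 25571442 to 30009361 in WT and 24804539 to 26782380 in Dp1Tyb cultures, with the highest total in WT replicate 1. Normalised counts are the authors' counts divided by a DESeq2 size factor per culture, and intervals from counting do not cover the differences between cultures. The summed level of 10 fibroblast markers was 47042 to 58231 CPM (the count scaled by the library's total) in WT and 41176 to 68268 CPM in Dp1Tyb. Markers of other cells were lower, at most 17.2 CPM for 4 endothelial and 10.7 CPM for 4 epithelial markers, with *Myod1*, *Myog*, *Ttn*, *Epcam* and *Cdh1* under 10 normalised counts everywhere. The sums of 4 Schwann or neural crest markers were lower in Dp1Tyb (7.90 to 26.7 CPM) than in WT (26.8 to 54.9 CPM) and those of 5 skeletal muscle markers higher (13.2 to 38.8 CPM in Dp1Tyb and 6.86 to 16.3 CPM in WT). Within set 2 the muscle sums did not overlap, with a lowest Dp1Tyb sum of 28.0 CPM. Of these 2 lists, 3 of 4 Schwann or neural crest and 2 of 5 skeletal muscle markers had counts enough to test. None of those tested was called, and the part of these markers in the results was not tested. The sums of 6 macrophage markers ranged from 56.2 to 206 CPM in WT and from 14.2 to 290.3 CPM in Dp1Tyb. In bulk RNA, fewer cells of a type and less RNA per cell cannot be told apart.

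Zinc finger members were mostly somewhat lower in Dp1Tyb than in WT cultures, but no single member passed the test, and the size of the shift depended on which cultures entered the fit. The question here was whether the extra chromosome 16 dose goes with altered expression of this block. Counts were high enough to test 55 of the 60 members, 27 of them zinc finger genes. *Rslcan18*, *Gm10037*, *Mir23b*, *Zfp85os* and *4930525G20Rik* were too low. In edgeR's quasi-likelihood test, 0 members had a Benjamini-Hochberg adjusted p below 0.05, against 0.165% of all 14567 genes tested, and 0 members had an unadjusted p below 0.05, against 3.13% of all genes. DESeq2 also called 0 members and gave 0 with an unadjusted p below 0.05. With the culture set as a covariate, 3 members, all lower in Dp1Tyb, had an unadjusted p below 0.05 against 4.04% of all genes. These were *Zfp748*, *Zfp87* and *Zfp874b*, and none passed after adjustment (edgeR adjusted p of at least 0.955). The normalised counts of the groups overlapped for all 60 members, while 1.32% of all genes tested had groups that did not overlap.

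Log2 fold changes (Dp1Tyb relative to WT) were fitted below 0 for 24 of 27 zinc finger members, with a median of -0.20, and for 37 of 55 members in all, with a median of -0.10. Over all genes, 49.0% were below 0 and the median was 0.00268. The region was picked around a low point of this same contrast. Lower values of its members were thus favoured by the choice and are a description only. The 24 tested other protein-coding members, which include the finger genes without a zinc finger symbol, split evenly, 12 lower and 12 higher. Without WT replicate 1, 13 of the 27 zinc finger members were lower, against 46.1% of all genes, and their median was 0.013, while the median of all 55 members was 0.043. That leaves Dp1Tyb replicate 1 as the only set 1 culture, so genotype and set are then mixed. For the zinc finger members, fits that balance the sets kept the sign. With the culture set as a covariate, 24 of 27 zinc finger members were lower, against 47.8% of all genes, with a median of -0.17. Within set 2 alone the median was nearer 0, at -0.058, with 18 of 27 lower, against 45.7%, and all 55 members had a median of 0.020.

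**Figure D1:**
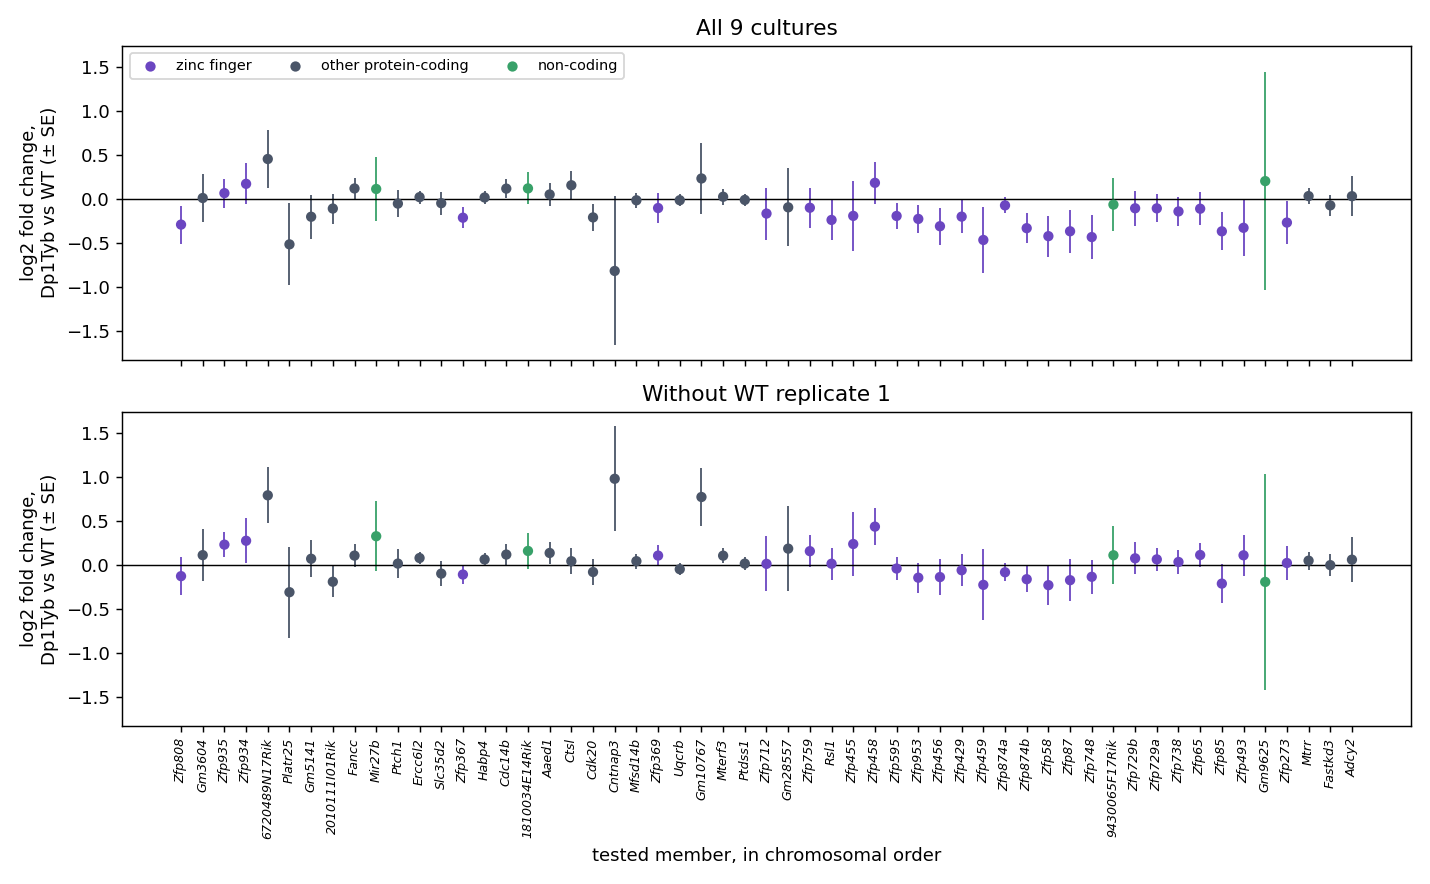
Fitted log2 fold changes (Dp1Tyb vs WT, ± SE) of the 55 tested members in chromosomal order, with all 9 cultures above and without WT replicate 1 below, coloured by gene group. With all cultures 24 of 27 zinc finger members (purple) lie below 0, and 13 do without WT replicate 1.

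*Zfp87* (ENSMUSG00000097333, chr13:67515781-67526177, minus strand) had 273, 188, 197 and 147 in the 4 WT cultures and 241, 141, 142, 118 and 142 in the 5 Dp1Tyb cultures, as normalised counts. The highest culture of each genotype was the set 1 culture, and the groups overlapped. Its fitted log2 fold change was -0.37 ± 0.24 (SE), with an exact permutation p of 0.198 over all relabelings of the 9 cultures, two-sided, where 0.00794 is the smallest p possible. Among set 2 cultures, the 3 WT values lay above the 4 Dp1Tyb values, with a log2 fold change of -0.39 ± 0.15 (SE), an exact permutation p of 0.0286 over 35 relabelings, two-sided, where 0.0286 is the smallest possible, and an edgeR adjusted p of 0.9998. When the culture set was added as a covariate, the fold change of *Zfp87* was -0.34 ± 0.12 (SE, edgeR adjusted p = 0.9997), and without WT replicate 1 it was -0.17 ± 0.24. Since the region was picked from the same contrast, these p-values are descriptions and no independent test of *Zfp87*. Groups that did not overlap within set 2 were seen for 6 of the 55 tested members and for 4.11% of all genes tested. These were *Zfp87*, *Zfp456*, *Zfp874b* and *Zfp85*, lower in Dp1Tyb, and *6720489N17Rik* and *Gm10767*, higher.

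The 8 zinc finger members with the lowest fold changes were *Zfp459* (-0.47 ± 0.38), *Zfp748* (-0.43 ± 0.25), *Zfp58* (-0.42 ± 0.23), *Zfp87*, *Zfp85* (-0.37 ± 0.22), *Zfp874b* (-0.33 ± 0.17), *Zfp493* (-0.33 ± 0.32) and *Zfp456* (-0.31 ± 0.21), each with its SE, and all 8 lie in the 23-gene stretch. *Zfp748* had 311, 165, 179 and 153 in the 4 WT cultures and 211, 124, 154, 130.3 and 136 in the 5 Dp1Tyb cultures. WT replicate 1 stood clear of the other cultures, Dp1Tyb replicate 1 came next, and the fold change was -0.29 within set 2 and -0.13 without WT replicate 1. *Zfp874b* had 218, 142, 161 and 141 in the 4 WT cultures and 157, 135, 119, 114 and 138 in the 5 Dp1Tyb cultures, and its unadjusted edgeR p of 0.0796 was the lowest of all tested members, with an exact permutation p of 0.0873, two-sided. WT replicate 1 was again the highest, and the fold change was -0.23 within set 2 and -0.16 without WT replicate 1. *Zfp85* had 86.2, 56.7, 58.5 and 66.7 in the 4 WT cultures and 70.9, 38.9, 51.8, 48.2 and 51.7 in the 5 Dp1Tyb cultures, and *Zfp58* had 82.9, 43.3, 70.6 and 47.8 in the 4 WT cultures and 51.7, 35.6, 44.8, 47.1 and 50.7 in the 5 Dp1Tyb cultures. Both showed the lowest value in Dp1Tyb replicate 2 and the highest in WT replicate 1.

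*Zfp456*, whose promoter is a near copy of that of *Rsl1*, had 78.9, 53.6, 54.4 and 52.8 in the 4 WT cultures and 65.1, 39.96, 44.8, 44.9 and 48.6 in the 5 Dp1Tyb cultures, and *Zfp493* had 104, 45.3, 43.4 and 43.8 in the 4 WT cultures and 68.0, 44.3, 47.8, 41.6 and 36.5 in the 5 Dp1Tyb cultures. In *Zfp493* the fold change was -0.058 within set 2 and 0.11 without WT replicate 1, so its direction turned without the highest culture. *Zfp459* was close to the detection limit, at 4.32 to 16.3 normalised counts over all cultures. *Rsl1* (ENSMUSG00000058900, chr13:67173182-67184044, plus strand) had 126.02, 59.8, 77.6 and 81.7 in the 4 WT cultures and 91.0, 72.4, 70.7, 68.98 and 65.9 in the 5 Dp1Tyb cultures. Its mean was 86.3 ± 28.2 in WT (SD, n = 4) and 73.8 ± 9.91 in Dp1Tyb (SD, n = 5), and its fold change was -0.24 ± 0.23 (SE), or -0.077 within set 2 and 0.014 without WT replicate 1, so no difference between genotypes was detectable beyond the spread of cultures. *Rslcan18*, another candidate gene named for the regulator of sex-limitation locus, had 10.6, 2.06, 3.02 and 5.98 in the 4 WT cultures and 7.66, 6.48, 7.96, 3.28 and 5.07 in the 5 Dp1Tyb cultures, too few counts for the test.

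At the other end, 3 zinc finger members were fitted higher in Dp1Tyb. *Zfp458* had 78.9, 36.1, 51.4 and 49.8 in the 4 WT cultures and 73.7, 59.4, 66.7, 48.2 and 61.8 in the 5 Dp1Tyb cultures and a fold change of 0.18 ± 0.24 (SE, exact permutation p = 0.333, two-sided). *Zfp934* had a fold change of 0.17 ± 0.23 and *Zfp935*, whose gene model overlaps it on the same strand, of 0.066 ± 0.16. All 3 were further above 0 without WT replicate 1, at 0.44, 0.28 and 0.23. Next in order were *Zfp874a* at -0.073 ± 0.092 and *Zfp369* at -0.10 ± 0.17. *Zfp874a*, 398, 429, 413 and 410.3 in the 4 WT cultures and 458, 415, 354, 368 and 377 in the 5 Dp1Tyb cultures, had the narrowest range of the family relative to its level. It and *Zfp934* were the only zinc finger members whose highest culture was not WT replicate 1.

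Most of the better expressed finger genes also had their highest value in WT replicate 1. *Zfp65* had 407, 208, 281 and 257 in the 4 WT cultures and 315, 244, 289, 246 and 252 in the 5 Dp1Tyb cultures, and *Zfp729a* had 349.6, 212, 228 and 274 in the 4 WT cultures and 266, 219, 278, 236 and 244 in the 5 Dp1Tyb cultures. In both, WT replicate 2 was the lowest culture, and the fold changes were -0.11 ± 0.19 and -0.11 ± 0.16 (SE). *Zfp367*, in which the scan found 1 finger and which lies outside the 23-gene stretch, had 371, 289.5, 267 and 318 in the 4 WT cultures and 306, 264, 271, 235 and 276 in the 5 Dp1Tyb cultures, with a fold change of -0.21 ± 0.12. *Zfp429* had 141, 92.7, 98.8 and 115 in the 4 WT cultures and 115, 75.6, 98.5, 88.7 and 111 in the 5 Dp1Tyb cultures, with a fold change of -0.20 ± 0.18. Here too WT replicate 1 was highest and the groups overlapped. *Zfp935* had 222, 143, 134 and 181 in the 4 WT cultures and 168, 162, 188, 189 and 190.5 in the 5 Dp1Tyb cultures, and *Zfp934* had 61.8, 47.4, 41.3 and 57.8 in the 4 WT cultures and 68.0, 35.6, 62.7, 58.0 and 70.9 in the 5 Dp1Tyb cultures. The WT values enclosed those of Dp1Tyb in *Zfp935*, and the reverse held in *Zfp934*. The tested zinc finger members not named so far, *Zfp808*, *Zfp712*, *Zfp759*, *Zfp455*, *Zfp595*, *Zfp953*, *Zfp729b*, *Zfp738* and *Zfp273*, had fold changes between -0.29 (*Zfp808*) and -0.10 (*Zfp759*), all with groups that overlapped.

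**Figure D2:**
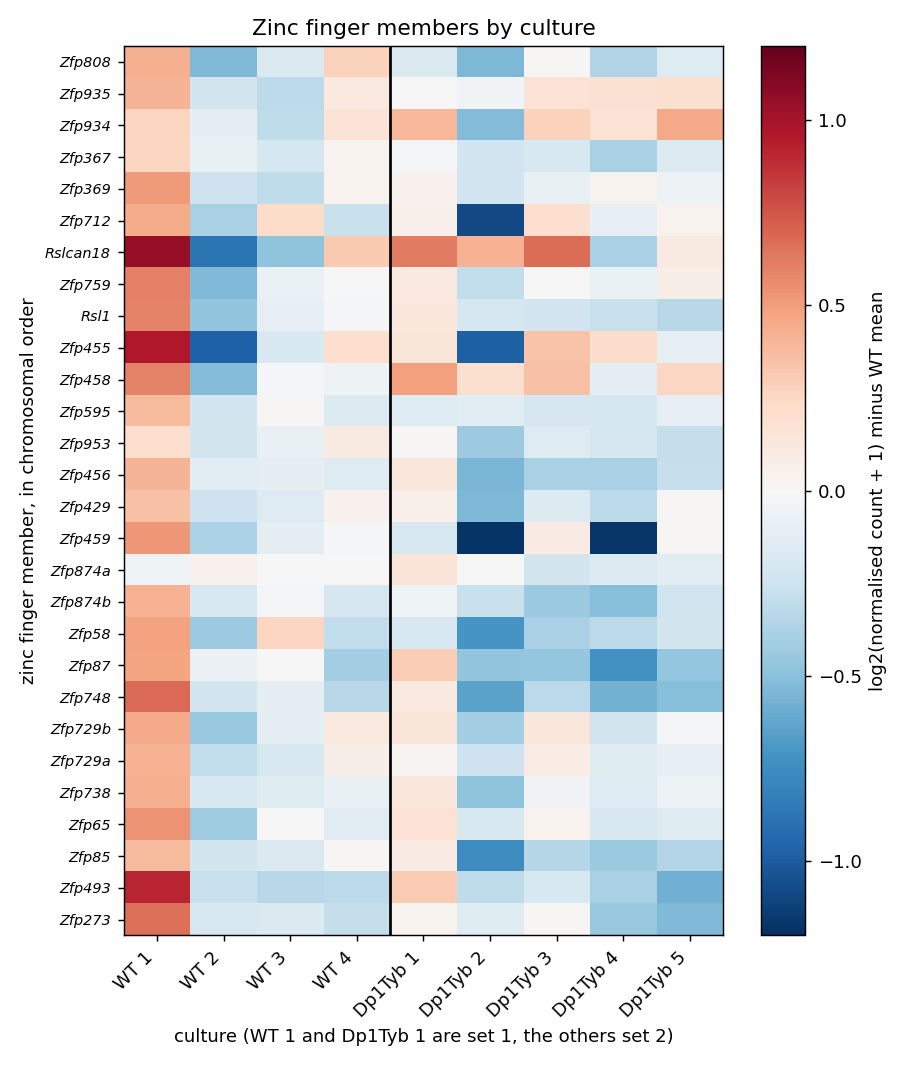
Level of each of the 28 zinc finger members in each culture, as log2(normalised count + 1) minus the mean of the 4 WT cultures, in chromosomal order. WT replicate 1 (first column) is the highest culture for 25 of the 27 tested members, against 22.6% of all genes tested. Dp1Tyb replicate 2 is the lowest for 12 (44.4%), against 42.3% of zinc finger genes outside the region and 26.3% of all genes tested.

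For the zinc finger members, cultures of the same genotype differed by more than the genotypes did. The median over the 27 tested zinc finger members of log2(normalised count + 1), relative to each gene's WT mean, was 0.44, -0.25, -0.11 and -0.012 in WT replicates 1 to 4 and 0.099, -0.41, -0.093, -0.22 and -0.13 in Dp1Tyb replicates 1 to 5. WT replicate 1 lay above and Dp1Tyb replicate 2 below all other cultures. The means of these medians were 0.017 ± 0.30 in WT (SD, n = 4) and -0.15 ± 0.19 in Dp1Tyb (SD, n = 5), so the groups differed by -0.17, less than the spread within WT. Within set 2 the corresponding difference was -0.090. WT replicate 1 was the highest of all 9 cultures for 25 of 27 zinc finger members, for 10 of 24 other protein-coding members and for 22.6% of all genes tested. It was also the highest for 211 of 326 zinc finger genes outside the region (64.7%), and for 6 of 7 on distal chromosome 2 and 2 of 7 on distal chromosome 4. Dp1Tyb replicate 1 was the highest of the 5 Dp1Tyb cultures for 19 of 27, against 16.6% of all genes. The same held for 137 of 326 zinc finger genes outside the region (42.0%), for 4 of 7 on distal chromosome 2 and for 1 of 7 on distal chromosome 4.

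**Figure D3:**
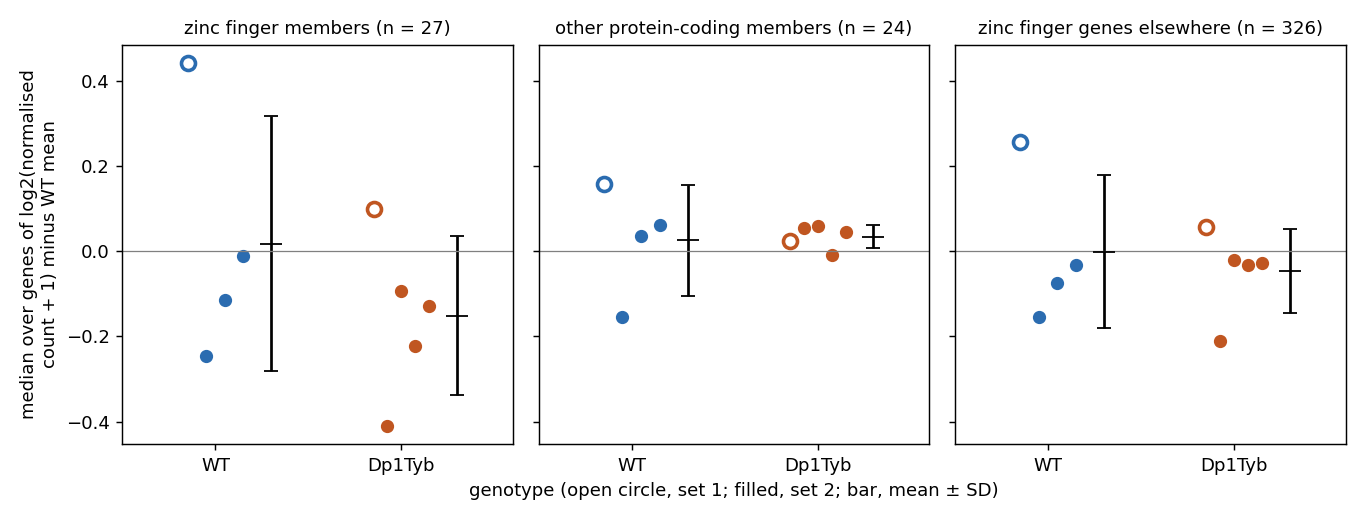
Median over genes of the level in each culture relative to the WT mean (log2), for zinc finger members, other protein-coding members and zinc finger genes elsewhere, with the set 1 culture of each genotype as an open circle and the mean ± SD beside the points. The 2 open circles are the highest of their genotype in the left and right panels, at 0.44 and 0.099 for the zinc finger members.

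The set labels separated the zinc finger members in 1 direction. In an edgeR fit with genotype and culture set, a comparison added after the cultures had been seen, all 27 tested zinc finger members were lower in set 2 than in set 1, with a median log2 difference of -0.45, while 49.9% of all genes were lower. The unadjusted p was below 0.05 for 16 of the 27, against 15.9% of all genes, and no member passed after adjustment, as for 0.0% of all genes. The largest differences were those of *Zfp493* (-0.98 ± 0.19, SE), *Zfp748* (-0.78 ± 0.13), *Zfp455* (-0.75 ± 0.41) and *Zfp87* (-0.74 ± 0.14). *Zfp874a* differed least, by -0.12 ± 0.10. Among the 24 other protein-coding members, 19 were lower and the median was -0.098. Set 1 holds 1 culture of each genotype, so what is due to the set and what to these 2 embryos cannot be told apart.

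Zinc finger members varied together from culture to culture. Over 9 cultures, the median Pearson correlation of log2(CPM + 1) over the 351 pairs of 27 zinc finger members was 0.72 (quartiles 0.58 and 0.82), with 96.9% of pairs above 0, and the median Spearman correlation was 0.57. After removal of each genotype's mean the median Pearson value was 0.74. For comparison, it was 0.11 over pairs of other protein-coding members, 0.43 over zinc finger genes elsewhere and 0.00 over all genes tested. All genes share the 9 libraries and their depth, so these values are descriptions and carry no p. Without WT replicate 1 the median over zinc finger members was 0.45, and without the 2 cultures farthest from the median of their mean level, WT replicate 1 and Dp1Tyb replicate 2, it was 0.37, so a large part of the co-variation rested on those cultures. Other clusters of the family also varied together: the median was 0.59 over 7 zinc finger genes of distal chromosome 4 and 0.63 over 7 of distal chromosome 2. Without WT replicate 1 these were 0.72 and 0.21, and within set 2 they were 0.73 and 0.19, against 0.29 here.

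Each member was next set against the mean of the other zinc finger members. Correlation was highest for *Zfp738* (r = 0.96, rho = 0.92, r = 0.90 without WT replicate 1), *Zfp65* (r = 0.93, rho = 0.93), *Zfp729a* (r = 0.92, rho = 0.87), *Rsl1* (r = 0.92, rho = 0.78) and *Zfp748* (r = 0.92, rho = 0.73), and 23 of 27 had r above 0.7. It was lowest for *Zfp874a* (r = 0.12, rho = -0.017), *Zfp934* (r = 0.49, rho = 0.50) and *Zfp935* (r = 0.58, rho = 0.32). *Zfp738* had 389, 253, 261 and 272 in the 4 WT cultures and 318, 206, 281, 259 and 278 in the 5 Dp1Tyb cultures, with the 2 set 1 cultures highest and Dp1Tyb replicate 2 lowest. The promoter of *Zfp874a* holds the shared word exactly, and so does that of *Zfp874b* (r = 0.81), although the 2 genes varied differently. The median r was 0.81 over the 9 genes with the exact word and 0.87 over the other 14, and it was 0.88 over the 18 with at most 1 changed base and 0.82 over the 5 without, so the order depended on how the word was counted. *Zfp87* varied most closely with its neighbour *Zfp748* (r = 0.93), *Zfp456* (0.92) and *Zfp874b* (0.90), and least with *Zfp935* (0.031). The closest pair of all was *Zfp456* and *Zfp748* (r = 0.96). The 26 neighbouring pairs had a median r of 0.74 and the other 325 pairs 0.71. Pairs within the 23-gene stretch had a median r of 0.74, and pairs of 1 member before and 1 within it 0.64.

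**Figure D4:**
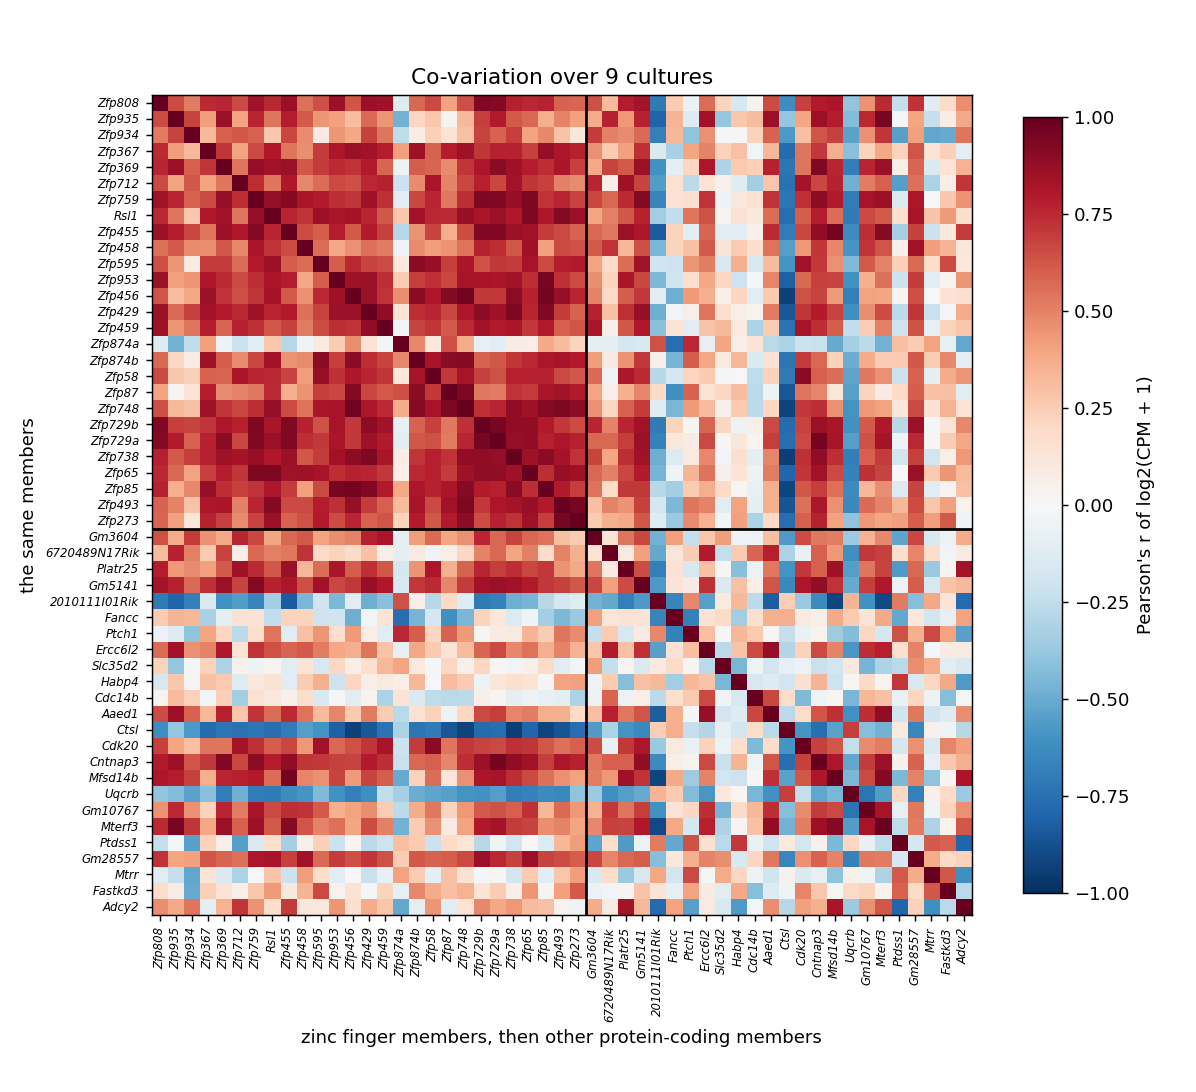
Pearson correlation of log2(CPM + 1) over 9 cultures between the 27 tested zinc finger members (upper left block) and 24 other protein-coding members, each in chromosomal order. The zinc finger block is nearly all red (median 0.72) apart from *Zfp874a*, and *Ctsl* and *Uqcrb* run opposite to it.

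With all cultures in the fit, the other protein-coding members showed no common direction, with 12 lower and 12 higher in Dp1Tyb. With the culture set as a covariate, 11 were lower and 13 higher. Most were fitted higher within set 2 alone (7 lower, 17 higher, median 0.060) and without WT replicate 1 (6 lower, 18 higher, median 0.061). Of all genes, 45.7% were lower within set 2 and 46.1% without WT replicate 1. *Ctsl* had 17430, 24776, 25481 and 26023 in the 4 WT cultures and 19293, 32890, 24595, 27532 and 26861 in the 5 Dp1Tyb cultures, a fold change of 0.16 ± 0.17 (SE). It was lowest in the 2 set 1 cultures and highest in Dp1Tyb replicate 2, the reverse of the zinc finger members (r = -0.90, rho = -0.77, and r = -0.84 without WT replicate 1). *Uqcrb* also ran opposite (r = -0.68, rho = -0.60), at 1243 to 1485 normalised counts, with a fold change of -0.014 ± 0.071. *Cntnap3*, which encodes a neurexin-family surface protein of neurons, had 154, 10.3, 7.06 and 25.9 in the 4 WT cultures and 32.6, 7.56, 48.8, 24.1 and 29.4 in the 5 Dp1Tyb cultures. WT replicate 1 alone gave it the lowest fold change of all members, -0.82 ± 0.85 (SE), and without that culture it was 0.98 ± 0.60. *Platr25* (-0.52 ± 0.47) and *Cdk20*, a cyclin-dependent kinase gene (-0.21 ± 0.15), were the next lowest. Highest were *6720489N17Rik* (0.45 ± 0.33), *Gm10767* (0.23 ± 0.40) and *Ctsl*. *6720489N17Rik*, one of the finger genes without a zinc finger symbol, had 14.6, 6.18, 5.04 and 10.96 in the 4 WT cultures and 15.3, 12.96, 11.9, 13.1 and 11.1 in the 5 Dp1Tyb cultures, few counts in every culture. Without WT replicate 1 its fold change was 0.79 ± 0.32 and that of *Gm10767* 0.77 ± 0.33 (edgeR adjusted p = 0.9997 for both). The remaining tested members of this group lay between -0.20 (*Gm5141*, also a finger gene) and 0.12 (*Fancc*).

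For *Ptch1*, *Mtrr* and *Ptdss1*, genes beside the finger genes, fitted differences were within 1 SE of 0. *Ptch1*, the Hedgehog receptor, had a mean of 254 ± 22.2 in WT (SD, n = 4) and 247 ± 50.4 in Dp1Tyb (SD, n = 5) normalised counts and a fold change of -0.053 ± 0.16 (SE). *Mtrr*, methionine synthase reductase, had 552 ± 20.2 in WT (SD, n = 4) and 569 ± 64.3 in Dp1Tyb (SD, n = 5) and a fold change of 0.033 ± 0.092. *Ptdss1*, a phosphatidylserine synthase gene next to the 23-gene stretch, had 1970 ± 101 in WT (SD, n = 4) and 1967 ± 142 in Dp1Tyb (SD, n = 5) and a fold change of -0.011 ± 0.070. Their standard errors are at most 0.16 on the log2 scale.

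Among the non-coding members, *Gm9625* stood out by its range. This processed pseudogene of the ribosomal protein gene *Rplp0* (chr13:67810246-67811200) had 51.2, 64.9, 1652 and 1715 in the 4 WT cultures and 1441, 1987, 52.8, 1482 and 59.8 in the 5 Dp1Tyb cultures. Its counts were between 51.2 and 64.9 in 4 cultures, 2 of each genotype, and between 1441 and 1987 in the other 5, with nothing between. Of 11161 genes with a mean of 100 normalised counts or more, 13 had such a step of 10-fold or more between neighbouring values. *Gm8730*, another *Rplp0* pseudogene, on chromosome 8, was high and low in the same cultures, at 50.4, 80.4, 6676 and 7196 in the 4 WT cultures and 6603, 8197, 74.7, 6462 and 61.8 in the 5 Dp1Tyb cultures. *Rplp0* itself had 41404, 47151, 36267 and 39711 in the 4 WT cultures and 33798, 43756, 49971, 34451 and 51009 in the 5 Dp1Tyb cultures, and its 4 lowest values were all in cultures where the pseudogenes were high, although the ranges of the high and low cultures overlapped. Of the 100-base windows of *Gm9625*, 21.03% recurred in transcripts elsewhere. Whether reads of one copy were placed on another was not tested. Its fold change of 0.20 ± 1.24 (SE) was well within its error. The remaining tested non-coding members were *Mir27b*, a miRNA gene at 0.11 ± 0.36, *1810034E14Rik* at 0.12 ± 0.18 and *9430065F17Rik* at -0.064 ± 0.30. The poly(A) libraries do not measure mature miRNAs, and *9430065F17Rik*, which lies opposite *Zfp748*, cannot be told apart from it if strand was not used in counting. The same holds for *Zfp85os* and *Zfp85*.

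**Figure D5:**
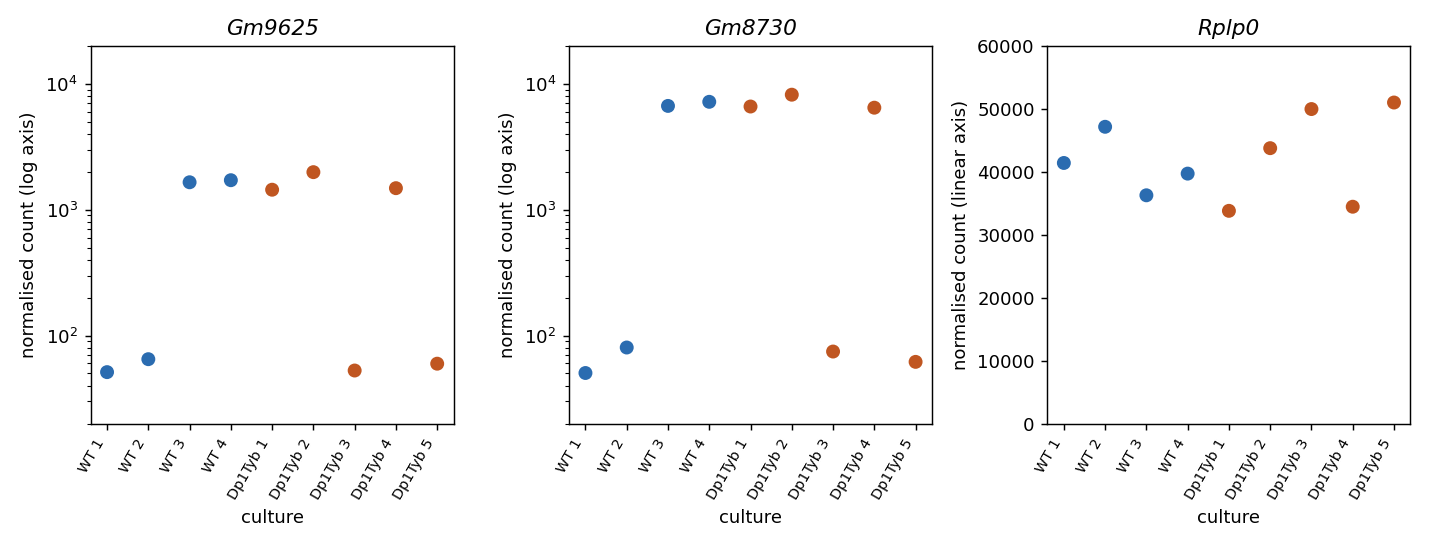
Normalised counts of *Gm9625*, *Gm8730* (log axes) and *Rplp0* (linear axis from 0) in each culture, WT in blue and Dp1Tyb in orange. The same 4 cultures are below 100 in both pseudogenes, and *Rplp0* lies between 33798 and 51009 in all cultures.

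Zinc finger genes outside the region had a smaller median difference of the same sign. Of 326 tested, 222 were fitted lower in Dp1Tyb, with a median of -0.071 and 0 called (5 at an unadjusted p below 0.05), and 119 were lower without WT replicate 1, with a median of 0.035. Between the sets, 294 of 326 were lower in set 2, with a median of -0.24. Their per-culture medians were 0.26, -0.16, -0.075 and -0.032 in WT replicates 1 to 4 and 0.057, -0.21, -0.022, -0.032 and -0.028 in Dp1Tyb replicates 1 to 5. The mean level of the 27 members and that of the 326 genes followed each other over the 9 cultures (r = 0.96, rho = 0.85, r = 0.83 without WT replicate 1 and Dp1Tyb replicate 2). In other clusters of the family, 7 tested genes on distal chromosome 4 had a median fold change of 0.26 and 1 was lower, and 7 on distal chromosome 2 had a median of -0.15 and 6 were lower. *Zfp979* of chromosome 4 had 52.0, 53.6, 57.5 and 75.7 in the 4 WT cultures and 86.2, 89.6, 96.6, 99.6 and 95.2 in the 5 Dp1Tyb cultures, and its groups did not overlap (log2 fold change 0.64 ± 0.16, SE, edgeR adjusted p = 0.547).

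Partners of KRAB zinc finger proteins were nearly all without a detectable difference. Of 28 corepressor and related chromatin genes, 18 were fitted lower and the median was -0.032. *Trim28*, the corepressor that KRAB domains bind, had a mean of 5739 ± 203 in WT (SD, n = 4) and 5582 ± 179 in Dp1Tyb (SD, n = 5) normalised counts, and *Setdb1* had 1369 ± 189.8 in WT (SD, n = 4) and 1277 ± 106 in Dp1Tyb (SD, n = 5). *Morc3*, which lies within the duplicated region of chromosome 16, was the only one that edgeR called and rose in Dp1Tyb, with 1152 ± 77.8 in WT (SD, n = 4) and 1725 ± 84.1 in Dp1Tyb (SD, n = 5) as normalised counts, a log2 fold change of 0.57 ± 0.066 (SE, edgeR adjusted p = 0.0120). Its call was lost in set 2 alone (edgeR adjusted p = 0.101) and without WT replicate 2 (0.0662), WT replicate 3 (0.0822), Dp1Tyb replicate 4 (0.0524) or Dp1Tyb replicate 5 (0.0697), while its log2 fold change stayed between 0.55 and 0.63 over the edgeR fits run. Of 9 genes named as targets in work on regulators of sex-limitation, only the complement genes had counts enough to test. *C4b* had 477, 94.8, 118 and 211 in the 4 WT cultures and 118, 46.4, 195, 129 and 135 in the 5 Dp1Tyb cultures, and its log2 fold change of -0.87 ± 0.51 (SE) was -0.18 ± 0.42 without WT replicate 1. *C4a* had fewer counts than *C4b*, at 18.9 to 43.4 normalised counts, with a log2 fold change of -0.26 ± 0.27.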

How the data were processed

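RNA from 4 WT and 5 Dp1Tyb MEF cultures had been sequenced from stranded poly(A) libraries (per the labels). The authors trimmed adapters with Trim Galore, mapped paired reads to GRCm38 with TopHat2 2.0.12, discarded reads that aligned to several places and counted the others per gene with HTSeq, which gave the deposited counts. The release of the gene annotation and the strand setting of the counting are not given in the sources used here, so reads of overlapping genes on opposite strands may not be told apart. The deposited normalised signal is each count divided by the DESeq2 (1.6.3) size factor of its culture. The deposited table of fold changes, p-values and mean levels holds the authors' own comparison and was not used.

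Gene positions and types came from GENCODE M21, which matched 42462 of the 43629 listed genes. The members and all gene lists were chosen with earlier results of these data known. Zinc finger genes were taken by symbol, since no protein table was used here. Reading frames were scanned for C2H2 fingers of a set spacing, so fingers with other spacings were not counted. The 100-base windows of transcripts were searched in transcripts of genes elsewhere. Counts were tested with edgeR 4.0.16 in R 4.3.3 (scaling by TMM, its own low-count filter, quasi-likelihood test, two-sided, Benjamini-Hochberg adjustment over 14567 genes), without covariates, and DESeq2 1.42.0 was an alternative. The fit was tested on simulated data. Single members were also tested by exact permutation of log2(normalised count + 1). Correlations used log2(CPM + 1) with TMM-scaled library totals. RPKM used the summed exon length. Other steps ran in Python 3.11.15 (pandas 2.3.3, numpy 2.4.6, scipy 1.17.1, Biopython 1.88).

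Named members are *Zfp87*, *Rsl1*, *Zfp458*, *Rslcan18*, *Ptch1* and *Mtrr*, the zinc finger members with the 8 lowest and 5 highest fold changes, the 6 with the highest RPKM, the 3 lowest, 3 highest and 3 best expressed of the other groups, the 3 on each side of the threshold, partner and target genes with an unadjusted p below 0.05, and the 5 highest and 3 lowest in correlation with the other zinc finger members. Genes named beyond these were chosen after their values were seen. Alternatives were edgeR with the size factors of DESeq2, DESeq2 itself (with or without its beta prior), a stricter and no low-count filter, the culture set as covariate, set 2 alone, a replicate block, each culture left out, other thresholds and member definitions, and other scales of correlation. Each culture came from its own embryo, so p-values measure the spread between embryos and cultures together.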

Additional observations from a re-analysis of the deposited data

Results flagged for a closer look

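In 76 groups of cultures, 9 had 1 value separated from the others by more than Dixon's 95% limit. Chance gives about 1 in 20 for independent groups. That rate does not apply here, because the groups share the same cultures over genes that varied together. Many genes were also named for extreme values. WT replicate 1 was that culture in 6 of the 9. It was above the other WT cultures for *Zfp738* (389 normalised counts), *Zfp748* (311), *Zfp493* (104), *Zfp456* (78.9) and *Cntnap3* (154), and below them for *Ctsl* (17430). Dp1Tyb replicate 1 was above the other Dp1Tyb cultures for *Zfp87* (241) and *Rsl1* (91.0), and Dp1Tyb replicate 2 was above them for *Ptdss1* (2219). Both cultures numbered 1 belong to set 1. WT replicate 1 had the most counts of all cultures, and the part of depth in these values was not tested.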

How the results depend on the processing

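No member was called under any of the alternatives run. Genes called in the whole table numbered 24, against 68 and 67 by DESeq2 without and with its beta prior, 1 in set 2 alone and 2 to 26 with a culture left out (2 without WT replicate 2 or 3, 3 without Dp1Tyb replicate 5, 8 to 15 without WT replicate 1 or 4 or Dp1Tyb replicate 1, 3 or 4). The median fold change of all members turned from -0.10 to 0.020 in set 2 alone, and ranged from -0.20 to 0.043 with a culture left out. That of zinc finger members ranged from -0.29 to 0.013, above 0 only without WT replicate 1, and under the other alternatives from -0.21 to -0.058. By finger count in place of symbols it was -0.20, and for the 23-gene stretch -0.21; both definitions were added after seeing the data. The median of other protein-coding members ranged from -0.037 to 0.061 with a culture left out. The SD of their per-culture medians was 0.13 in WT and 0.028 in Dp1Tyb cultures. Median correlation of zinc finger members fell to 0.29 in set 2 alone, 0.57 by Spearman and 0.37 without the 2 farthest cultures, and ranged from 0.45 (without WT replicate 1) to 0.76 with a culture left out. Of 33 named and tested members, 11 changed sign without WT replicate 1, 7 in set 2 alone and 0 under DESeq2 or its size factors.

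With a replicate block on the culture numbers, 0 genes were called in the whole table, and the median of zinc finger members was -0.17, with 24 of 27 lower (50.4% of all genes). *Zfp87*, *Zfp748* and *Zfp874b* had an unadjusted p below 0.05 (5.51% of all genes), and *Morc3* was not called (edgeR adjusted p = 0.0858). Dp1Tyb replicate 5, with no partner, adds nothing to that fit. Deviations from the genotype means correlated at 0.33, 0.77, 0.041 and 0.36 for same-numbered cultures, so the numbers do not pair every culture.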
